A study of Mus with 21 samples.

Results

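What a loss-of-function allele of *Nipbl* changed in the brain transcriptome of mouse embryos that were already heterozygous for a deletion of *Wapl* was read from 13 of the 21 libraries of the study. The comparison set 6 double heterozygotes, labelled Wapl delta; Nipbl delta, against 7 *Wapl* heterozygotes, labelled Wapl delta, so that both groups carried 1 deleted copy of *Wapl* and only the first also carried 1 mutated copy of *Nipbl*. The members were chosen by their labels alone, and all genes were examined. In the double heterozygotes *Nipbl* RNA stood at 56.0% of its level in *Wapl* heterozygotes, 248 genes were lower and 63 higher, and the decreases included 17 beta protocadherins. Lower genes were also found among neuropeptides, amine and peptide receptors and macrophage genes, largely in lists made after values had been seen. A further fit took as a term the order in which the labels write the *Wapl* alleles. In it 3 of 21, 6 of 48 and 3 of 22 genes of those lists were called lower, against 0.426% of all genes.

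Cohesin is a ring-shaped complex of SMC1A, SMC3, RAD21 and a STAG subunit that holds DNA and extrudes it into loops. NIPBL, with its partner MAU2, loads the ring onto chromatin and drives extrusion, and WAPL takes the ring off again. Heterozygous loss of *NIPBL* is the main cause of Cornelia de Lange syndrome in people, a disorder of growth, limbs and brain in which expression of many genes shifts by small amounts. The question put to this comparison was how the transcriptome answers to a lower dose of the loader when the dose of the release factor is already low.

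Every library came from the whole brain of 1 female embryo at E17.5. The genotypes in the labels were Wapl delta/+ or +/delta with Nipbl +/+ for *Wapl* heterozygotes, and Wapl delta/+ or +/delta with Nipbl +/delta for double heterozygotes. For reference, 5 WT brains (Wapl +/+; Nipbl +/+) and 3 *Nipbl* heterozygotes (Wapl +/+; Nipbl +/delta) gave the same step on an intact *Wapl* background. The *Wapl* deletion removes the promoter and the first exons and was made with E2a-Cre from a floxed allele kept on a backcrossed line. The *Nipbl* mutation arose in the germ line of the sire through the Stra8-icre transgene, so that all cells of an embryo carry it. Embryos came from 2 crosses, in which the *Wapl* deletion could be inherited from the dam or from the sire, and neither the cross nor the litter of a library is given in the labels, so p-values measure the spread between these embryos whatever its source.

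Between 25682566 and 34650792 counts fell on genes in each of the 13 libraries (median 31830396), and 30552 of the 55335 genes in the table were tested. Within the 13 libraries, 1 feature separated embryos in a way the 2 groups did not: the labels write the *Wapl* genotype as delta/+ for *Wapl* heterozygotes 1 and 2 and double heterozygotes 1 to 4, and as +/delta for *Wapl* heterozygotes 3 to 7 and double heterozygotes 5 and 6. The mitochondrial gene *mt-Nd3* had 0 to 4 counts in the delta/+ libraries and 52 to 106 in the +/delta libraries. The order is unevenly spread over the groups, and its part in the results was therefore read from a fit with the order as a term. Growth hormone RNA (*Gh*), a product of the pituitary, had 201 and 820 normalized counts in double heterozygotes 5 and 6, 17.2 in *Wapl* heterozygote 1 and at most 0.958 in the other 10. The fit without the libraries with *Gh* left out double heterozygotes 5 and 6 and *Wapl* heterozygote 1. It kept double heterozygotes 1 to 4, all written delta/+, against *Wapl* heterozygotes 2 (delta/+) and 3 to 7 (+/delta). Genotype and allele order are nearly confounded in that fit. In these whole-brain libraries, fewer cells of a type and less RNA per cell cannot be told apart.

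*Nipbl*, on chromosome 15 from 8289824 to 8465315 (GRCm38), had 1956 to 2243 normalized counts in *Wapl* heterozygotes (median 2138) and 1135 to 1244 in double heterozygotes (median 1186). Every double heterozygote lay below every *Wapl* heterozygote. The log2 fold change was -0.83 (standard error, SE, of 0.0393, edgeR quasi-likelihood adjusted p = 1.37e-10), and an exact two-sided permutation test over the 13 libraries gave p = 0.000583, the smallest it can give. On the intact background *Nipbl* fell by a similar amount, giving a log2 difference of -0.89 (edgeR adjusted p = 1.95e-07), and the interaction of the genotypes for this gene was 0.02 in log2 units (edgeR adjusted p = 0.941).

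*Wapl*, on chromosome 14 from 34672379 to 34747983, had 590 to 755 normalized counts in *Wapl* heterozygotes (median 721) and 704 to 775 in double heterozygotes (median 739). The ranges overlapped, the log2 fold change was 0.09 (SE 0.0585, edgeR adjusted p = 0.677), and the exact permutation test gave p = 0.266. The 2 RNAs were also set against each other as the ratio of normalized counts of *Wapl* to *Nipbl*, which is not corrected for gene length and is compared here only between groups. It was 0.328 ± 0.0215 (SD, n = 7) in *Wapl* heterozygotes, 0.621 ± 0.0152 (SD, n = 6) in double heterozygotes, 0.690 ± 0.0254 (SD, n = 5) in WT and 1.19 ± 0.0399 (SD, n = 3) in *Nipbl* heterozygotes. Double heterozygotes thus had a ratio above every *Wapl* heterozygote (0.291 to 0.356), with an exact permutation p of 0.000583. *Nipbl*, by whose genotype the groups were set, separates them by itself with the same p, so this p is no separate test of the ratio.

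**Figure D1:**
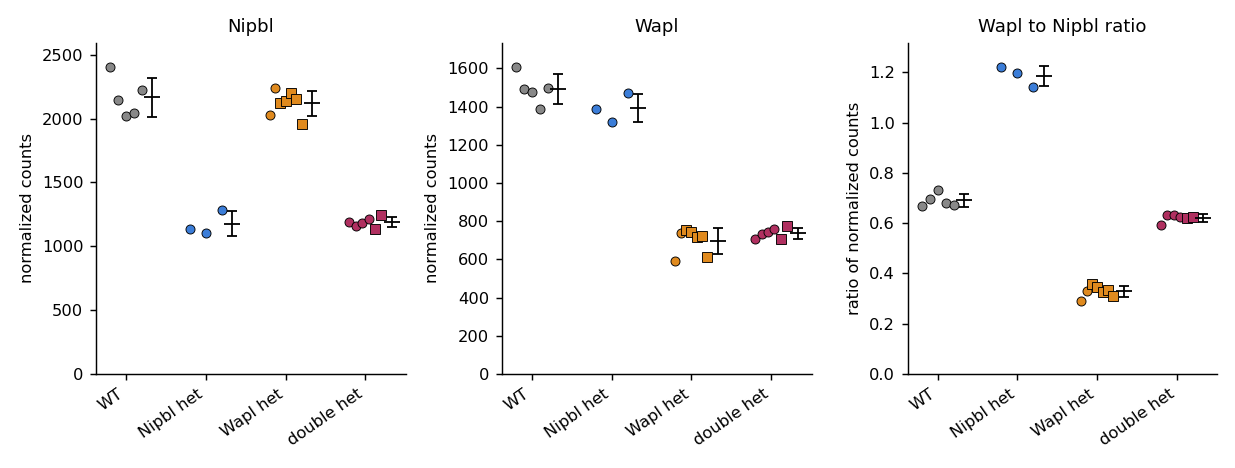
Normalized counts of *Nipbl* and *Wapl*, and their ratio, in each library of the 4 groups. Points are libraries (squares, labels that write the *Wapl* genotype as +/delta), and bars give the mean ± SD. The 6 double heterozygotes sit between 1135 and 1244 for *Nipbl*, below all 7 *Wapl* heterozygotes, while the *Wapl* values of these groups overlap.

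Across the transcriptome, more genes were called lower than higher in double heterozygotes, and nearly all changes were small. At an adjusted p below 0.10, 311 genes were called differentially expressed genes (DEGs) by edgeR, which is 1.02% of the genes tested. Of these, 248 were lower (0.812%) and 63 higher (0.206%), with 3037 genes below 0.05 before adjustment. The split was less uneven in some fits, with 154 higher and 472 lower by DESeq2, 162 and 283 without *Wapl* heterozygote 2, 124 and 325 without double heterozygote 5, and 132 and 253 without the libraries with *Gh*. Most steps were small: 289 of the 311 DEGs stayed under a 2-fold difference, with median sizes on the log2 scale of 0.28 for lower and 0.33 for higher genes. The count moved with single libraries, to 163, 203 and 179 without *Wapl* heterozygotes 3, 4 and 6 and to 165 and 189 without double heterozygotes 1 and 4. All 311 kept their sign in each of these fits, which use the libraries the 311 were chosen on. In 177 of the DEGs the 2 groups did not overlap. Over all tested genes, 219 (0.717%) had every double heterozygote below every *Wapl* heterozygote, and 54 (0.177%) had every one above.

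The lower DEGs were of moderate abundance, with a median of 668 normalized counts, and 88.7% of them had a mean of at least 100. The median genomic span was 39.8 kb for the 241 lower DEGs with a position in the reference table, 28.3 kb for 58 higher DEGs and 24.6 kb for 13529 tested genes with a mean of at least 100 counts. These are descriptions, since calls come more easily for abundant genes. Of all tested genes 47.6% had a mean of at least 100, so the share called lower is above 0.812% among abundant genes. Counts of gene lists below stand beside 0.812% of all genes called lower and 0.206% called higher. With the allele order as a term these shares were 0.426% and 0.105%. By chromosome, 3.86% of the 699 genes tested on chromosome 18 were called, 24 lower and 3 higher. Chromosome 18 carries the beta protocadherins. On chromosome 15, where *Nipbl* lies, 2.51% of 956 genes were called, 23 lower and 1 higher, and the other chromosomes named in the reference table ranged from 0.348% (X) to 1.87% (16).

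**Figure D2:**
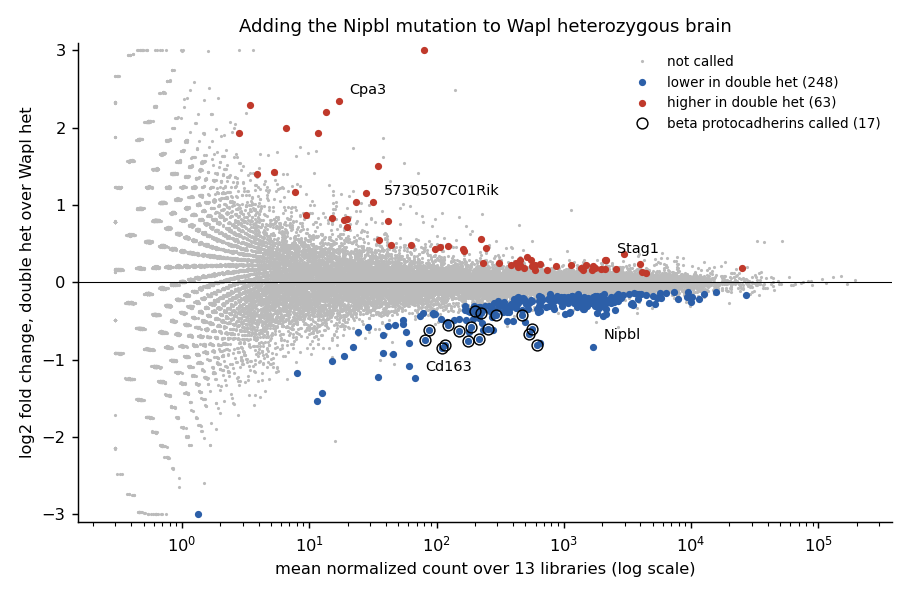
Log2 fold change of double heterozygotes over *Wapl* heterozygotes against the mean normalized count of the 13 libraries on a log axis, for all tested genes, with values beyond 3 drawn at 3. DEGs are coloured and the 17 beta protocadherins called are ringed, and the 248 lower DEGs lie mainly above 100 counts while the largest increases lie below.

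The clustered protocadherins are cell adhesion molecules of neurons, and each neuron uses a limited choice of them as an identity tag. Their genes lie in alpha, beta and gamma clusters side by side on chromosome 18, and the choice of promoter depends on cohesin and CTCF. In the beta cluster, where every gene is a single exon, 17 of 22 tested genes fell (77.3%, against 0.812% of all genes called lower) and none rose. Their levels in double heterozygotes were 55.1% to 77.1% of those in *Wapl* heterozygotes, and the groups did not overlap in 16 of the 17. The median log2 fold change over the 22 genes was -0.59, against 0.0059 over all tested genes.

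*Pcdhb17* (chromosome 18, 37485021 to 37488290) was among the most abundant, with 683 to 836 normalized counts in *Wapl* heterozygotes (median 778) and 398 to 461 in double heterozygotes (median 440). No double heterozygote came near the lowest *Wapl* heterozygote. Its log2 fold change was -0.81 (SE 0.0546, edgeR adjusted p = 5.13e-08). The largest decrease was that of *Pcdhb13*, with 108 to 177 normalized counts in *Wapl* heterozygotes (median 139) and 54.9 to 85.0 in double heterozygotes (median 78.7), a log2 fold change of -0.85 (SE 0.118, edgeR adjusted p = 0.000695). *Pcdhb16* (-0.81), *Pcdhb8* (-0.76) and *Pcdhb15* (-0.74) were also among the 12 largest decreases when only DEGs with no overlap and a mean of 1 CPM (counts scaled per library to a common total) or more were ranked. The smallest change among the 17 was that of *Pcdhb11*, with 200 to 263 and 151 to 195 normalized counts and a log2 fold change of -0.37 (SE 0.0827, edgeR adjusted p = 0.0454).

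Of the 5 beta genes not called, 4 had log2 fold changes from -0.54 (*Pcdhb2*) to -0.19 (*Pcdhb12*), and *Pcdhb1* was nearly silent with group means of 1.45 and 1.51 normalized counts. With the order of the *Wapl* alleles as a term 17 beta genes were again lower, 16 of those above and *Pcdhb4* (edgeR adjusted p = 0.0615), while *Pcdhb11* was not called (edgeR adjusted p = 0.166). Without the libraries with *Gh*, where genotype and allele order are nearly confounded, 18 were lower. On the intact *Wapl* background 21 of the 22 beta genes were lower in *Nipbl* heterozygotes than in WT. There 6.96% of all genes were called lower. The median over the 22 genes was -0.79 there and -0.59 here, and this gap was not tested. None of the 22 was called for the interaction, but edgeR called none of 30552 genes, so this does not show equal decreases. Leaving *Pcdhb1* aside, their interaction values ran from -0.114 (*Pcdhb3*) to 0.73 (*Pcdhb21*) in log2 units. Members of this cluster are close copies of each other, and how reads that match several of them were counted is not stated.

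In the neighbouring clusters no gene was called by edgeR or DESeq2, and 0 alpha and 1 gamma genes had an unadjusted p below 0.05. The 13 tested alpha and 22 gamma protocadherins had median log2 fold changes of -0.07 and -0.08, although all 13 and all 22 values were below 0. The alpha gene with the smallest p, *Pcdha12*, had 4568 to 5415 normalized counts in *Wapl* heterozygotes and 4588 to 5004 in double heterozygotes (log2 fold change -0.09), and the gamma gene, *Pcdhgc3*, had 18760 to 20080 and 15830 to 19400 (-0.09). Genes of the alpha cluster share their last exons, as do those of the gamma cluster, so that counts of single members there are not independent. Of 10 protocadherins outside the clusters none was called by edgeR, 6 had an unadjusted p below 0.05 and DESeq2 called 1 lower, and *Pcdh10*, with 4744 to 5526 and 4449 to 4954 normalized counts, had the smallest p (log2 fold change -0.15, edgeR adjusted p = 0.156).

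**Figure D3:**
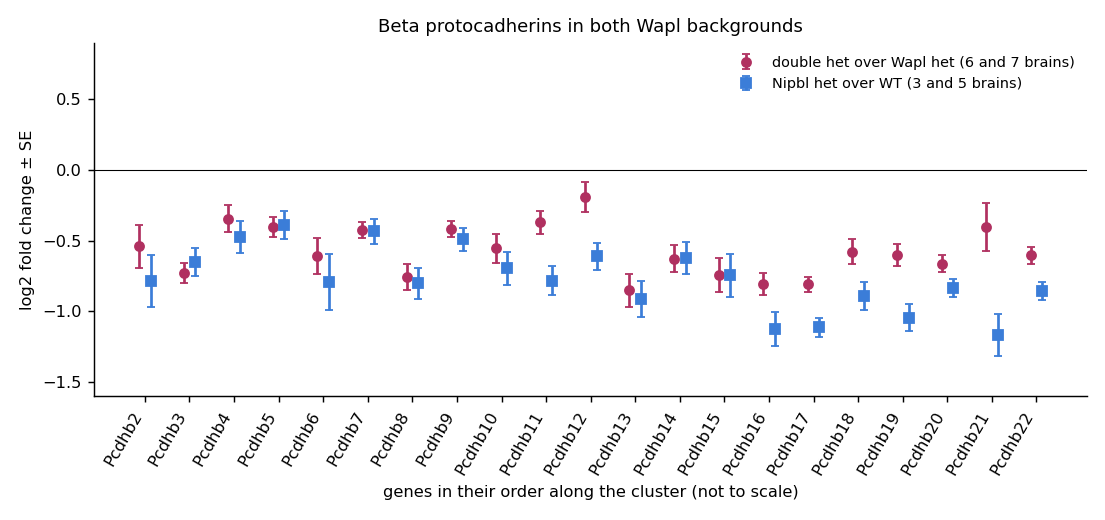
Log2 fold change ± standard error of 21 beta protocadherins (*Pcdhb1*, nearly silent, is left out) in their order along the cluster, for double heterozygotes over *Wapl* heterozygotes (circles) and *Nipbl* heterozygotes over WT (squares). All 21 values lie below 0 on both backgrounds, and the decrease on the *Wapl* background is -0.85 at its largest.

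Among 15 genes of the cohesin ring and its regulators, *Nipbl* fell and *Stag1* rose (6.67% each way, against 0.812% and 0.206% of all genes). The only decrease is thus that of the mutated gene. *Stag1* (chromosome 9, 100597709 to 100958544) encodes a STAG subunit of the ring. It had 1742 to 2082 normalized counts in *Wapl* heterozygotes (median 1988) and 2329 to 2513 in double heterozygotes (median 2352), with no overlap. Its log2 fold change was 0.28 (SE 0.0406, edgeR adjusted p = 0.000974; 0.29 and edgeR adjusted p = 0.00408 with the allele order as a term), and the exact permutation p was 0.000583. WT brains had 2139 ± 121 (SD, n = 5) normalized counts of *Stag1* and *Nipbl* heterozygotes 2309 ± 135 (SD, n = 3), a log2 fold change of 0.10 that was not called (edgeR adjusted p = 0.236). Of 12 genes mutated in syndromes like Cornelia de Lange syndrome none was called by edgeR or DESeq2 and 4 had an unadjusted p below 0.05, and *Kmt2a*, a histone methyltransferase, had the smallest p with 4887 to 7987 and 5573 to 8498 normalized counts (log2 fold change 0.32, edgeR adjusted p = 0.201). None of 46 histone-modifying enzymes was called by edgeR, 11 had an unadjusted p below 0.05 and DESeq2 called 1 higher, and *Kmt2c* had 2402 to 3000 and 2834 to 3437 normalized counts (log2 fold change 0.20).

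Of 18 hypothalamic neuropeptide genes 3 fell and none rose (16.7% lower, against 0.812% of all genes), with a median log2 fold change of -0.17. With the allele order as a term 2 of the 3 were called, and *Pdyn* was not. *Npy* encodes neuropeptide Y, made by cortical interneurons and by hypothalamic cells that promote feeding. It had 625 to 912 normalized counts in *Wapl* heterozygotes (median 854) and 385 to 550 in double heterozygotes (median 450), without overlap. The log2 fold change was -0.79 (SE 0.0853, edgeR adjusted p = 5.06e-05), and within the embryos written delta/+ and +/delta it was -0.82 and -0.70. *Sst* (somatostatin) fell, with 2039 ± 126 normalized counts (SD, n = 7) in *Wapl* heterozygotes and 1693 ± 127 (SD, n = 6) in double heterozygotes, as did *Pdyn* (prodynorphin), with 405 ± 41.7 and 328 ± 29.5. *Sst* did not overlap between the groups, *Pdyn* did, and their log2 fold changes were -0.26 and -0.30 (edgeR adjusted p = 0.0141 and 0.0688).

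In a wider list of 21 neuropeptides and secretory granule proteins, put together after values had been seen, 6 fell and none rose (28.6% lower, against 0.812% of all genes). Among them were *Penk* (proenkephalin, -0.30), *Adcyap1* (PACAP, -0.28) and *Vgf* (-0.38). With the allele order as a term, 3 of the 21 were called. Among 23 markers of GABAergic neurons 4 fell (17.4%), the peptides *Npy*, *Sst* and *Penk* and the dopamine receptor *Drd1* (log2 fold change -0.32, SE 0.0720, edgeR adjusted p = 0.0454), and the median of the list was -0.04. With the allele order as a term *Npy* and *Sst* were called and *Penk* and *Drd1* were not.

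Receptors for amines and peptides were among the decreases as well. In a list of 48 such receptors, likewise made after values had been seen, 12 fell and none rose (25.0%, against 0.812% of all genes called lower). Of the 48 log2 fold changes 40 were below 0 (median -0.21). *Calcr*, the calcitonin receptor, had 298 to 362 normalized counts in *Wapl* heterozygotes (median 330) and 182 to 256 in double heterozygotes (median 211). All 6 double heterozygotes lay below the lowest *Wapl* heterozygote, with a log2 fold change of -0.61 (SE 0.0720, edgeR adjusted p = 0.000123). *Pth2r*, a receptor for a peptide related to parathyroid hormone, had 59.4 to 90.3 and 26.1 to 52.7 normalized counts (log2 fold change -0.79, SE 0.143, edgeR adjusted p = 0.0104). *Htr1a*, the serotonin 1A receptor, had 214 to 289 and 155 to 207, again without overlap (-0.52, SE 0.0838, edgeR adjusted p = 0.00398).

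The adrenergic receptor *Adra2a*, with 643 to 751 and 505 to 594 normalized counts (log2 fold change -0.38, edgeR adjusted p = 0.000552), showed the same separation. *Htr2a* (serotonin 2A, -0.40) and *Sstr2* (a somatostatin receptor, -0.35) were called although their groups overlapped. Of the 12 receptors called, 6 were also called with the allele order as a term.

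Among 16 markers of monoaminergic neurons 3 fell (18.8%) and none rose. They were *Htr1a*, *Nr4a2*, a transcription factor of dopamine neurons, and *Slc6a3*, the dopamine transporter. *Nr4a2* had 1031 to 1425 normalized counts in *Wapl* heterozygotes (median 1206) and 761 to 1057 in double heterozygotes (median 935), ranges that overlapped slightly, with a log2 fold change of -0.40 (SE 0.0739, edgeR adjusted p = 0.0125). *Slc6a3* had 134 to 197 and 85.0 to 142 (-0.48, edgeR adjusted p = 0.0480) and lost its call with the allele order as a term, which left 2 of the 3. The median over the 16 genes was -0.07.

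Genes of synapses and of excitability gave few calls by edgeR, all of them lower. Of 18 ionotropic glutamate receptors 2 fell (11.1%), *Grik4*, a kainate receptor subunit (677 to 770 against 538 to 603 normalized counts, no overlap, log2 fold change -0.30, edgeR adjusted p = 0.00197), and *Grin2a*, an NMDA receptor subunit (-0.45, edgeR adjusted p = 0.0454), whose call was lost with the allele order as a term (edgeR adjusted p = 0.170). Of 15 GABA-A receptor subunits none was called by edgeR, 3 had an unadjusted p below 0.05 and DESeq2 called 1 lower. Of 35 genes of synaptic adhesion and scaffolds 3 fell (8.57%, against 0.812% of all genes). They were *Cbln2* (1559 to 1888 against 1362 to 1516, log2 fold change -0.25, edgeR adjusted p = 0.00985), *Cntnap4* (-0.25) and *Lrfn2* (-0.23), the last of which lost its call with the order term. Of 33 genes of synaptic vesicles and release edgeR called *Cplx2* (complexin 2, -0.22), and DESeq2 called 3 lower and 1 higher.

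Of 22 sodium and calcium channel genes *Cacna1i*, a T-type calcium channel, fell with 1465 to 1762 against 1039 to 1452 normalized counts and no overlap (log2 fold change -0.34, SE 0.0681, edgeR adjusted p = 0.0225). Of 30 potassium channels *Kcnk2* (-0.20) and *Kcnh1* (-0.21) fell, and *Kcnh1* was not called with the order term. The medians of these 6 lists lay between -0.10 and 0.01. On the intact background the *Nipbl* mutation lowered 12 of the 18 glutamate receptors, 12 of the 15 GABA-A subunits, 23 of the 35 adhesion and scaffold genes, 18 of the 33 vesicle genes, 9 of the 22 sodium and calcium channels and 17 of the 30 potassium channels, where 6.96% of all genes were called lower. The difference between these counts and those above was not tested.

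*Dmrt2*, a transcription factor of the doublesex family and 1 of 31 patterning factors, was the only one of its list to be called by edgeR. It had 37.7 to 55.8 normalized counts in *Wapl* heterozygotes (median 44.9) and 13.1 to 25.9 in double heterozygotes (median 19.8). Every double heterozygote was well below the lowest *Wapl* heterozygote, with a log2 fold change of -1.22 (SE 0.164, edgeR adjusted p = 0.000544). Of 37 Wnt pathway genes the ligand *Wnt7b* (-0.35) and the R-spondin *Rspo2* (225 to 275 against 132 to 220 normalized counts, -0.46, edgeR adjusted p = 0.0172) fell. Of 33 axon guidance genes *Sema5a* (1222 to 1449 against 1033 to 1180, -0.26, edgeR adjusted p = 0.00748) and *Plxnd1* (-0.27, not called with the order term) fell (6.06%, against 0.812% of all genes). Of 25 cell cycle genes *Ccnd1*, encoding cyclin D1, fell (1533 to 1770 against 1339 to 1494, -0.23, edgeR adjusted p = 0.0126).

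Some genes listed for the retinoic acid pathway were among the decreases. In a list of 20 genes of that pathway, chosen after values had been seen, 4 fell and none rose (20.0% lower, against 0.812% of all genes). The median was -0.01. The aldehyde dehydrogenases *Aldh1a1* and *Aldh1a7* lie next to each other on chromosome 19 and are close relatives. *Aldh1a7* had 35.5 to 60.2 normalized counts in *Wapl* heterozygotes and 16.4 to 33.6 in double heterozygotes, without overlap (log2 fold change -0.92, SE 0.167, edgeR adjusted p = 0.0108). *Aldh1a1* had 214 to 344 and 148 to 216, overlapping slightly (-0.62, edgeR adjusted p = 0.00755). *Dhrs3* (-0.29), which reduces retinal, and *Cyp26b1* (-0.34), which degrades retinoic acid, lost their calls with the allele order as a term. Of 17 tested feedback targets of growth factor signalling, a list also made afterwards, 7 fell and none rose (41.2%, against 0.812% of all genes called lower). With the order term 2 were called.

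Progenitor and region lists held few calls. Of 18 genes of radial glia and intermediate progenitors edgeR called only *Elavl4*, an RNA-binding protein of newborn neurons, which was higher (3781 to 4047 against 4167 to 4464 normalized counts, log2 fold change 0.14, edgeR adjusted p = 0.0552). Of 33 imprinted genes *Zdbf2* was higher (0.21, edgeR adjusted p = 0.0780) and none was lower, and of 17 immediate early genes *Nr4a1* was lower (-0.26, edgeR adjusted p = 0.0737). These 3 calls were lost with the allele order as a term. By edgeR none of 20 markers of cortical projection neurons was called, none of 20 of cerebellar neurons (*Calb1*, 605 to 889 against 475 to 666 normalized counts, edgeR adjusted p = 0.104) and none of 21 *Hox* genes (*Hoxb3*, 474 to 623 against 458 to 760, edgeR adjusted p = 0.409). At an unadjusted p below 0.05 there were 5, 5 and 2 of them, and DESeq2 called 2 cortical markers lower, 1 cerebellar marker higher and 1 lower, and no *Hox* gene.

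Macrophage genes were among the decreases. Of 10 markers of border macrophages, which live in the meninges and around vessels, 2 fell (20.0%), and of 15 microglial markers 2 fell (13.3%), with medians of -0.19 and -0.11. With the allele order as a term each list kept 1 call, and *Stab1* and *Laptm5* lost theirs. *Cd163* (chromosome 6, 124304636 to 124330529), the scavenger receptor for haptoglobin-bound haemoglobin on border macrophages, had 64.9 to 133 normalized counts in *Wapl* heterozygotes (median 78.7) and 20.0 to 56.5 in double heterozygotes (median 38.3). The groups did not overlap, and the log2 fold change was -1.24 (SE 0.206, edgeR adjusted p = 0.00532), with -0.72 in the embryos written delta/+ and -1.92 in those written +/delta. *Stab1*, another scavenger receptor, fell, with 1898 ± 108 (SD, n = 7) and 1553 ± 214 (SD, n = 6) normalized counts (-0.28, edgeR adjusted p = 0.0706) and lies within 10 Mb of *Wapl*, on the chromosome both groups carry with the deletion.

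*Cx3cr1*, the fractalkine receptor of microglia, had 336 to 462 and 271 to 306 normalized counts (log2 fold change -0.39, SE 0.0743, edgeR adjusted p = 0.0157), and *Laptm5*, a lysosomal protein, was lower by a smaller step (-0.24, edgeR adjusted p = 0.0869). Summed over the 10 border macrophage markers, *Wapl* heterozygotes had 3369 to 4156 and double heterozygotes 2933 to 3539 normalized counts. *Fcgr2b*, an inhibitory Fc receptor, is outside both lists and belongs to the list that follows. It had 48.7 to 72.9 in *Wapl* heterozygotes and 22.2 to 38.3 in double heterozygotes (-0.93, SE 0.154, edgeR adjusted p = 0.00495). In a list of 22 further macrophage and chemokine genes made after values had been seen, 8 fell and none rose (36.4%, against 0.812% of all genes called lower). They included *Fcgr2b*, *Csf1*, the growth factor of macrophages (-0.36), and the chemokine receptor *Ccr1*, which had 10.9 to 24.0 and 0.934 to 9.80 normalized counts (-1.53, edgeR adjusted p = 0.0326). With the allele order as a term 3 of these 8 were called.

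Mast cell proteases, named after their values had been seen, were among the largest increases in fold. *Cpa3*, carboxypeptidase A3, had 3.98 to 7.68 normalized counts in *Wapl* heterozygotes (median 6.27) and 13.1 to 47.9 in double heterozygotes (median 29.4). *Cma1*, a chymase, had 2.03 to 7.96 (median 5.22) and 11.98 to 28.5 (median 27.4), and *Tpsb2*, a tryptase, 2.44 to 6.38 (median 5.07) and 11.98 to 26.0 (median 19.9). For all 3 the lowest double heterozygote was above the highest *Wapl* heterozygote, at mean levels below 1 CPM. The log2 fold changes were 2.34 for *Cpa3* (SE 0.290, edgeR adjusted p = 0.000221), 2.20 for *Cma1* (SE 0.281, edgeR adjusted p = 0.000279) and 1.94 for *Tpsb2* (SE 0.236, edgeR adjusted p = 0.000186).

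The 3 proteases were called with the allele order as a term. They were called without the libraries that hold *Gh* too, a fit in which genotype and allele order are nearly confounded. They were also higher in *Nipbl* heterozygotes than in WT (log2 fold changes of 1.58 for *Cpa3*, 2.32 for *Cma1* and 1.44 for *Tpsb2*, with edgeR adjusted p = 0.0308, 0.00165 and 0.0363). Of the 7 tested genes of a mast cell list, these 3 rose, *Kit*, which many brain cells use, fell (-0.20, edgeR adjusted p = 0.0129), and the other 3 were not called. Summed over the list, *Wapl* heterozygotes had 2896 to 3170 and double heterozygotes 2520 to 2832 normalized counts, nearly all of them from *Kit*. Of 12 tested neutrophil genes, a list also made afterwards, 3 rose, among them *S100a9* (1.15, edgeR adjusted p = 0.0502) and *Stfa2l1* (1.93, edgeR adjusted p = 0.0952), and none of the 3 was called with the allele order as a term or without the libraries that hold *Gh*. Summed over the list, neutrophil genes had 67.5 to 162 normalized counts in *Wapl* heterozygotes and 136 to 261 in double heterozygotes.

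Of 17 markers of the oligodendrocyte lineage 3 fell (17.6%), the transcription factors *Olig1* (-0.30) and *Sox10* (-0.38) and the myelin protein *Mbp* (-0.21). Their edgeR adjusted p values were 0.0417, 0.0570 and 0.0709, the median of the list was -0.22, and none of the 3 was called with the allele order as a term. None of 17 astrocyte markers was called by edgeR, 5 had an unadjusted p below 0.05 and DESeq2 called 1 lower, and *Gpr37l1* had 31.7 to 104 and 13.1 to 47.9 normalized counts (log2 fold change -1.05, edgeR adjusted p = 0.116). Among 16 markers of meningeal fibroblasts *Gjb2*, a connexin, fell (285 to 360 against 214 to 265, no overlap, -0.41, edgeR adjusted p = 0.00532), among 32 collagen and matrix genes *Fbln1* (1451 to 1595 against 1233 to 1367, no overlap, -0.22, edgeR adjusted p = 0.00557) and *Vcan* (-0.17, not called with the order term), and among 21 of endothelium and pericytes *Prnd*, a prion-like protein of brain vessels (185 to 247 against 123 to 175, no overlap, -0.64, SE 0.0916, edgeR adjusted p = 0.000960).

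Summed levels of the meningeal list ran from 22990 to 37850 normalized counts in *Wapl* heterozygotes and from 17850 to 35980 in double heterozygotes. Neither edgeR nor DESeq2 called any of 16 markers of choroid plexus and ependyma (*Folr1*, 201 to 345 against 176 to 247), any of 18 of skeletal muscle, bone and cartilage (*Ibsp*, 13.4 to 138 against 13.7 to 711), any of 56 cytoplasmic ribosomal proteins (*Rps23*, 6630 to 7580 against 6817 to 8903) or any of 13 mitochondrially encoded proteins, of which 4, 4, 0 and 0 had an unadjusted p below 0.05. Of 12 erythroid genes *Slc4a1*, the anion exchanger of red cells, fell (31.9 to 103 against 23.1 to 71.7, overlapping, -1.09, edgeR adjusted p = 0.0701), and its call was lost with the order term and in 9 of 13 fits without 1 library. Of 10 tested pituitary genes *Gh* was called higher (edgeR adjusted p = 0.0795), a call that rests on double heterozygotes 5 and 6, since the other 4 had at most 0.958 normalized counts.

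The 12 largest increases among DEGs with no overlap and a mean not under 1 CPM were *5730507C01Rik* (1.04), *Ppp1r17* (0.48), *Gm49127* (0.48), *Pmfbp1* (0.40), *Zfp608* (0.37), *2410018L13Rik* (0.33), *Stag1* (0.28), *C1qtnf1* (0.25), *Cep162* (0.24), *Hist3h2a* (0.22), *Trmt13* (0.21) and *Ginm1* (0.19) on the log2 scale. *Zfp608*, a zinc finger protein on chromosome 18 outside the protocadherin clusters (54888045 to 54992591), was the most abundant, with 2479 to 2782 normalized counts in *Wapl* heterozygotes (median 2596) and 2906 to 3659 in double heterozygotes (median 3461). All 6 double heterozygotes were above all 7 *Wapl* heterozygotes (SE 0.0476, edgeR adjusted p = 0.000303), and *Zfp608* rose by almost the same step in *Nipbl* heterozygotes over WT (0.36, edgeR adjusted p = 7.79e-05). *5730507C01Rik*, a predicted gene on chromosome 12, had 13.4 to 31.9 and 35.5 to 65.3 normalized counts (SE 0.183, edgeR adjusted p = 0.00834). *Cep162*, a protein of centrioles and cilia, had 557 to 659 and 685 to 737 (SE 0.0466, edgeR adjusted p = 0.0160). *Hist3h2a*, a histone H2A gene, had 1302 to 1515 and 1564 to 1741 (SE 0.0443, edgeR adjusted p = 0.0201). *2410018L13Rik* was called with edgeR adjusted p = 0.0110, and the edgeR adjusted p of the other 6 increases lay between 0.0389 (*Pmfbp1*) and 0.0887 (*Ginm1*). Of these, *Ppp1r17*, *Pmfbp1*, *Trmt13* and *Ginm1* lost their calls with the allele order as a term. *Ppp1r17*, *C1qtnf1*, *Ginm1* and *Gm49127* lost theirs in 10, 10, 11 and 7 of 13 fits without 1 library.

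**Figure D4:**
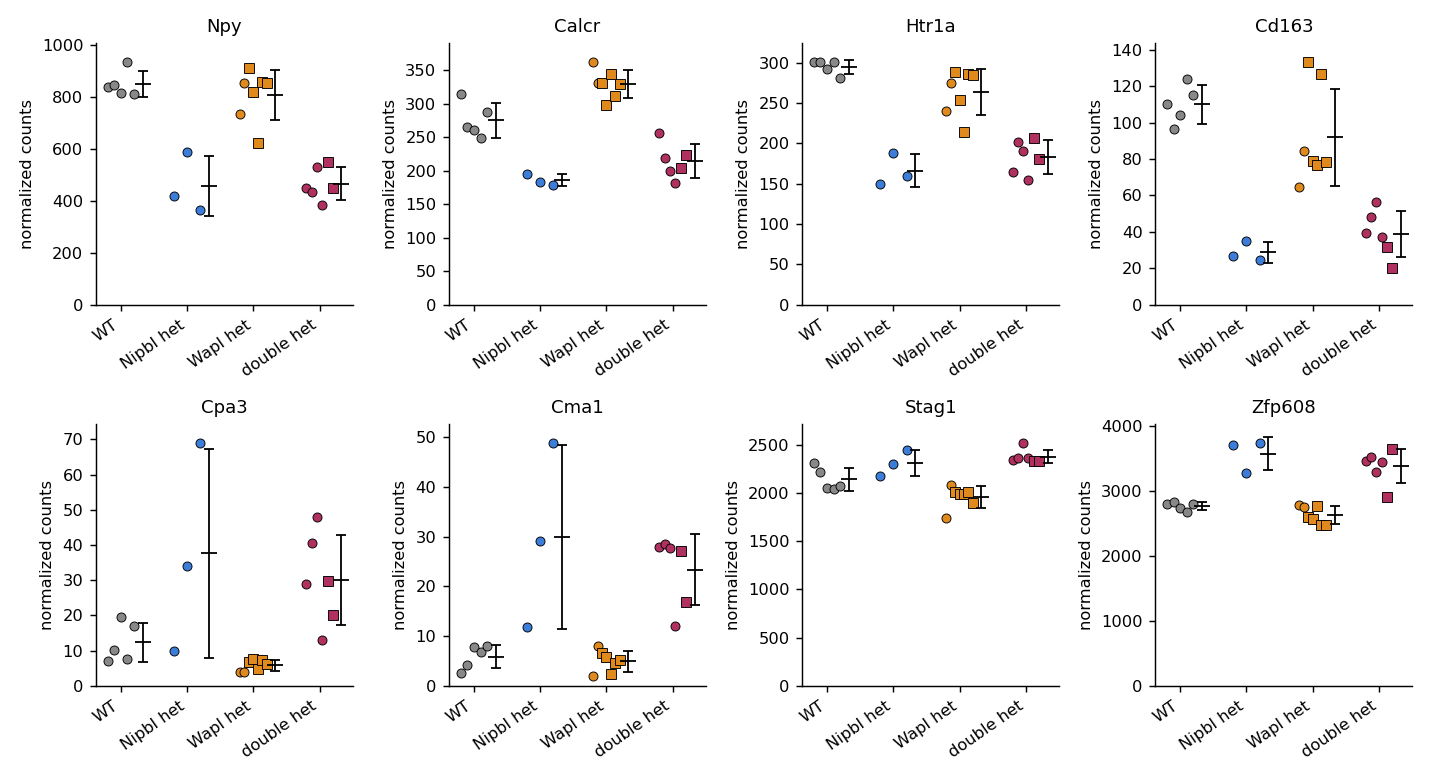
Normalized counts of 8 genes in each library of the 4 groups. Points are libraries (squares, *Wapl* genotype written +/delta), and bars give the mean ± SD. For every gene shown the 6 double heterozygotes lie on one side of the 7 *Wapl* heterozygotes: below for *Npy*, *Calcr*, *Htr1a* and *Cd163*, above for *Cpa3*, *Cma1*, *Stag1* and *Zfp608*.

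The same *Nipbl* mutation was also present on the intact *Wapl* background, and the 8 libraries of that comparison, 3 *Nipbl* heterozygotes and 5 WT, are not used in the comparison above. There 3422 genes were called (11.2%), 2125 lower (6.96%) and 1297 higher (4.25%). Of the 311 DEGs of the *Wapl* background, 293 had a log2 fold change of the same sign on the intact background (94.2%, 95% Wilson interval 91.0% to 96.3% if genes were independent), 239 of the 248 lower and 54 of the 63 higher ones. Both comparisons called 199 genes, which is 64.0% of the 311 and 5.82% of the 3422, and all 199 had the same sign. In 137 of the 199 the change was smaller on the *Wapl* background. Over the 199 genes the median log2 fold change was -0.28 on the *Wapl* background and -0.35 on the intact background. Genes chosen for a call in both comparisons are given here as a description.

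Read the other way, from the 3422 DEGs of the intact background, the median shifts on the *Wapl* background were nearer 0. The 2125 genes that were lower there had a median log2 fold change of -0.29 there and -0.05 here, and 62.6% of them were below 0 here. The 1297 genes that were higher there had medians of 0.19 and 0.01, and 54.0% of them were above 0 here. Among 11476 genes with a mean of at least 100 counts called in neither comparison, 50.3% had the same sign in both. The 3422 genes were chosen by their values on the intact background, so the medians there are given as a description, and the gap between the backgrounds was not tested over them.

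Whether single genes responded differently on the 2 backgrounds was tested with the interaction of the genotypes over all 21 libraries. No gene was called by edgeR (0 of 30552), although 4221 had an unadjusted p below 0.05. DESeq2 called 793, and the edgeR count went from 0 to 253 without *Wapl* heterozygote 2 and to 945 without double heterozygote 6. The count of genes called for the interaction thus depended on the test and on these 2 libraries. All 3 *Nipbl* heterozygotes belong to the libraries with few *mt-Nd3* counts, and with only the 3 WT libraries that share this feature the intact background gave 1881 DEGs.

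Of the 311 DEGs, 18 had opposite signs on the 2 backgrounds, and none of the 18 was called on the intact one. One of them was *Gh*, at log2 fold changes of 6.04 and -5.87 on the *Wapl* and intact backgrounds, with 2110 normalized counts in 1 WT library.

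**Figure D5:**
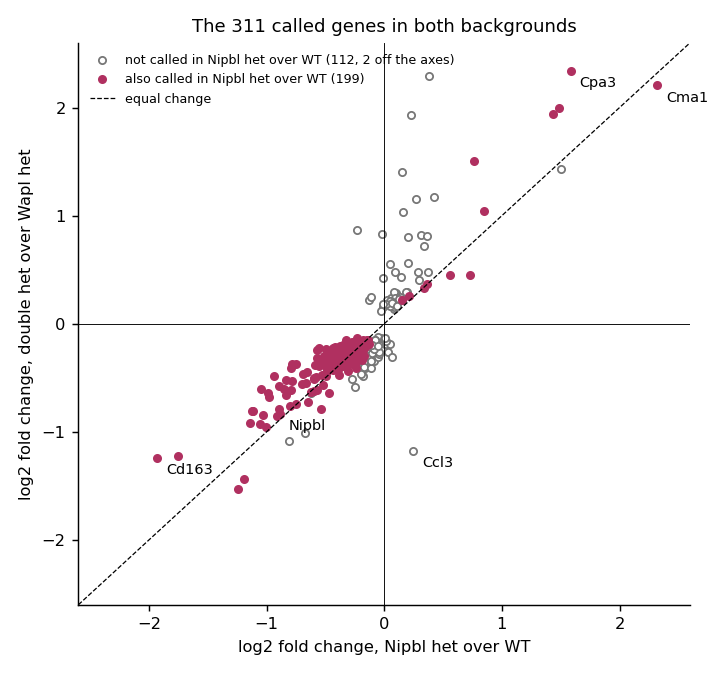
Log2 fold changes of the 311 DEGs of double heterozygotes over *Wapl* heterozygotes (vertical axis) against those of *Nipbl* heterozygotes over WT (horizontal axis), which share no library. Filled points are the 199 genes called in both, open points those called only on the *Wapl* background (2 lie off the axes), and the dashed line marks equal change. Of the 311 genes 293 lie in the quadrants of equal sign.

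Genes beside the mutated ones were looked at separately. Within 10 Mb of *Nipbl*, 3 of 80 tested genes fell (3.75%, against 0.812% of all genes called lower), and 1 of the 3 is *Nipbl* itself, the mutated gene. The others were *4930556M19Rik* (26.9 to 42.6 against 20.9 to 25.1 normalized counts, -0.58, edgeR adjusted p = 0.0822) and *Npr3*, a natriuretic peptide receptor (222 to 350 against 195 to 286, -0.39, edgeR adjusted p = 0.0917). Both neighbours of *Nipbl* lost their calls with the order term, and in 10 and 11 of 13 fits without 1 library. Within 10 Mb of *Wapl* 2 of 156 fell, *Stab1* and *Ogdhl*. Leaving out both windows left 306 of the 311 DEGs. *Xist*, the RNA that coats the inactive X chromosome, was higher in double heterozygotes (25160 to 28280 against 20270 to 25650 normalized counts, log2 fold change 0.18, edgeR adjusted p = 0.0887, exact permutation p = 0.00175), and the call was lost with the allele order as a term (edgeR adjusted p = 0.134).

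With the order of the *Wapl* alleles as a term, 162 genes were called, 130 lower (0.426%) and 32 higher (0.105%), together 0.530% of those tested, 151 of which belong to the 311. All 311 kept their sign in that fit. In the embryos written delta/+ alone, 4 double against 2 *Wapl* heterozygotes, 310 of the 311 had the same sign and 24 genes were called, and in those written +/delta, 2 against 5, all 311 had the same sign and 29 genes were called. The 311 were chosen on these same libraries. Agreement in sign is therefore nearly fixed in advance, and is given as a description.

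Each of the 6 double heterozygotes lay below every *Wapl* heterozygote for 85.9% to 95.6% of the 248 lower DEGs, and above every one for 81.0% to 93.7% of the 63 higher DEGs, which are the genes chosen for this difference. Over the whole transcriptome, the mean Euclidean distance between 2 libraries on the log2 CPM scale was 85.7 within double heterozygotes and 84.1 within *Wapl* heterozygotes. The ratio was 1.02 (exact two-sided permutation test over 1716 assignments, p = 0.409).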

How the data were processed

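RNA sequencing (paired-end, poly(A)-selected) was done by the authors on 21 whole-brain libraries. They trimmed reads with cutadapt 2.4, mapped them with STAR 2.5.3a to GRCm38 and counted them with featureCounts, and deposited raw gene counts without normalization. Annotation, strand and multi-mapping settings are not given in the sources used here. A further *Nipbl* library was not analysed here. Groups came from the labels. No 2 replicates agreed within counting noise (smallest chi-square per gene 4.59).

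Counts were tested in R 4.3.3 with edgeR 4.0.16 (TMM, quasi-likelihood test, 2 groups per fit, Benjamini-Hochberg over all genes, called below 0.10). A gene was kept when its normalized counts over the 21 libraries reached 10 in sum. The interaction was fitted on all 4 groups. Normalized counts are TMM-scaled. DESeq2 1.42.0 was an alternative, as were its size factors, other filters, a threshold of 0.05, 1 fit of every group, a block for replicate number, the allele order and leaving out libraries. Leaving out the libraries with *Gh*, and joining the order term with the low *mt-Nd3* libraries, were chosen after seeing the data. Single values were also tested by exact permutation with a pseudocount of 0.5. Gene positions came from a RefSeq table for GRCm38.p6, which matched 24076 tested genes by symbol, 260 by synonym, and left 6216 unmatched. On simulated counts for this comparison (30552 genes) the test recovered 92 of 100 genes changed by 0.5 on the log2 scale. It recovered 100 of 100 genes changed by 1, and 26 unchanged genes were called. Changed genes were drawn only from genes above a minimum mean count. Recovery of genes of few counts, and of genes changed by less than 0.5, was not tested. The median sizes of the lower and higher DEGs, 0.28 and 0.33, are below 0.5.

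Named were *Nipbl*, *Wapl*, the 12 largest changes each way among DEGs with no overlap and a mean not under 1 CPM, up to 4 called members of each gene list (otherwise the member with the smallest p), the extremes of the beta protocadherins and DEGs within 10 Mb of *Nipbl*. Some genes that this rule names are not reported here. The members were set by their labels alone, but with earlier results of these data known, as were the lists and tests. Of the lists, 7, with the genes taken from them, were made after values had been seen. In low genes such as the mast cell proteases, counting error adds to the spread between embryos and limits precision.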

Additional observations from a re-analysis of the deposited data

Results flagged for a closer look

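In 200 sets of values (100 named genes in each of the 2 groups), 12 held a library farther from the others than Dixon's 95% limit allows. Chance alone flags about 1 set in 20, and no explanation was sought. In double heterozygotes these were *Stag1* in library 3 (2513 normalized counts, the next 2365), *Pcdhb13* in library 1 (54.9, next 74.8), *Slc6a3* in library 4 (85.0, next 122), *S100a9* in library 2 (67.0, next 41.1), *Prnd* in library 4 (175, next 137), *Gh* in library 6 (820, next 201) and *5730507C01Rik* in library 6 (65.3, next 43.6). In *Wapl* heterozygotes they were *Olig1* in library 7 (2387, next 1965), *Gh* in library 1 (17.2, the other 6 at 0), *Kmt2a* in library 2 (7987, next 5796), *Ibsp* in library 1 (138, next 47.0) and *Xist* in library 1 (20270, next 23640).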

How the results depend on the processing

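DEGs of double over *Wapl* heterozygotes numbered 311, and 626 by DESeq2 (301 of the 311 among them), 576 in 1 fit of all groups, 171 at a threshold of 0.05, 162 with the allele order as a term, 24 in delta/+ and 29 in +/delta libraries alone. Leaving out 1 library gave 163 to 449. DEGs of *Nipbl* heterozygotes over WT numbered 3422, and 1658 in 1 fit, 1893 with the replicate block and 1881 in low *mt-Nd3* libraries, and 1828 to 4788 without 1 library. Joining the order term with low *mt-Nd3* libraries reused the fits of 162 and of 1881 DEGs, and so adds no further count. For the interaction edgeR gave 0, DESeq2 793, and leaving out 1 library 0 to 945. The share of DEGs with the same sign on the intact background was 94.2%, and 86.42% by DESeq2, 98.83% at 0.05, 87.15% in 1 fit, 100% and 82.76% in delta/+ and +/delta libraries, 88.57% without the libraries with *Gh* and 73.71% to 98.77% without 1 library. The cause of these shifts was not tested.

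With the replicate block 253 DEGs were called, 205 of them among the 311. Replicate numbers did not pair the samples: the correlations of same-numbered libraries ran from -0.273 to 0.394, and only numbers 1 and 3 correlated best with their own. Without the libraries with *Gh*, where genotype and allele order are nearly confounded, 385 genes were called, 216 of them among the 311. *Nipbl* stayed between -0.852 and -0.818 and *Wapl* between 0.048 and 0.107 without 1 library. Of 82 named DEGs, 46 stayed called without any 1 library and 81 kept their sign in every fit, the exception being *Gh* (-4.506 in delta/+ libraries). Of the 82, 33 lost their call with the allele order as a term and 16 with the replicate block. Only 4 stayed called under every alternative. Signs of uncalled genes turned for *mt-Nd3* (0.11 with the order term, 0.972 in delta/+ and 0.056 in +/delta libraries), *Rps23* (-0.03) and *Pcdhb12* (0.101) in delta/+ libraries, *Ibsp* (-0.652) in +/delta libraries, and *Pcdhb1* (-0.209 without the libraries with *Gh*, -0.195 to 0.347 without 1 library). Depth limits genes of a few counts, such as the mast cell proteases.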
